A study of Mus musculus with 14 samples.

Results

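Full-grown mouse oocytes carrying only a catalytically inactive AGO2 (Ago2 ADH) were compared with floxed control oocytes (Ago2 fl/fl) to ask which transcripts rise and which fall when AGO2 can no longer cleave its targets. The 3 Ago2 ADH and the 3 Ago2 fl/fl libraries were chosen by their labels from the 14 libraries of the study, which also holds Ago2 null, Dicer WT and Dicer KO oocytes. AGO2 is the Argonaute protein whose catalytic site cuts an RNA that pairs with the bound small RNA. In mouse oocytes the abundant small RNAs include endogenous siRNAs (endo-siRNAs), which are cut by DICER from long double-stranded RNA formed by inverted repeats, by overlapping antisense transcripts, or by an mRNA pairing with an antisense transcript of its own pseudogene. The ADH allele changes 1 of the catalytic residues, so that the protein can still load a small RNA but no longer cuts the target.

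The Ago2 ADH females carried 1 floxed and 1 ADH allele with a Cre transgene driven by the promoter of Zp3, a gene active only in growing oocytes, so that the floxed copy was removed in the oocyte and the ADH copy alone remained. The controls were homozygous for the floxed allele and had no Cre, so Cre expression and the number of Ago2 copies differ between the groups together with the ADH mutation. The labels call the control oocytes wild-type, and the background of all lines was described as mixed and mostly C57BL6. Each library came from 20 oocytes pooled from 3 or 4 females, freed of cumulus cells by pipetting; the females were 4 to 6 weeks old, were given equine chorionic gonadotropin (5 IU) and used 48 h later. The oocytes were at the germinal vesicle stage, arrested before the first meiotic division and nearly silent in transcription, so their RNA is the store made during growth.

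Between 31366583 and 42925024 reads were counted per library with 1 transcript kept for each gene, and 13979 of 20638 genes passed the filter on low counts and were tested. Pools of oocytes served as replicates, and the p-values measure the spread between such pools. The names of the deposited files place the control libraries on 1 sequencing lane and the Ago2 ADH libraries on another, and the effects of lane and genotype cannot be told apart. All 12 oocyte markers were detected, and their summed level was 24749 to 26244 in CPM (counts scaled to the same total in every library) in Ago2 fl/fl and 24096 to 24933 in Ago2 ADH. The 12 markers of granulosa and cumulus cells, the follicle cells around the oocyte, summed to 108 to 117 CPM in Ago2 fl/fl and 91.6 to 99.1 in Ago2 ADH, with 1 of the 8 tested markers up-regulated and 2 down-regulated. The summed levels were 3.80 to 4.17 and 2.77 to 4.44 CPM for 8 theca and stroma markers and 65.2 to 72.8 and 68.3 to 74.3 CPM for 5 endothelial markers, of which 1 was at 0. Leukocyte markers (5) summed to at most 0.715 CPM in any library and erythrocyte markers (6, of which 3 were at 0) to at most 1.08 CPM. The part of these other cells in the results below was not tested.

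Ago2 itself had 1285, 1356 and 1274 normalized counts in the 3 Ago2 fl/fl libraries and 756, 698 and 680.4 in the 3 Ago2 ADH libraries. The groups did not overlap, and the log2 fold change was -0.87 ± 0.09 (SE; edgeR quasi-likelihood test with Benjamini-Hochberg adjustment, adjusted p = 1.45e-07). Normalized counts are raw counts scaled to a common library size, and fold changes compare Ago2 ADH with Ago2 fl/fl as fitted, either on the log2 scale with their standard error or as the corresponding multiple. The point mutation itself cannot be seen in a table of counts per transcript.

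At a false discovery rate (FDR) of 1%, 41.0% of the tested genes were mis-regulated. The 2907 up-regulated genes (20.8%) and the 2821 down-regulated genes (20.2%) were nearly equal in number but unequal in the size of their changes. The median log2 fold change was 0.87 among the up-regulated genes and -0.51 among the down-regulated genes, against 0.01 over all tested genes. Of the genes changed at least 2-fold, 1314 (9.40% of those tested) were up-regulated and 555 (3.97%) were down-regulated, so that 70.3% went up (95% Wilson interval of the share, 68.2% to 72.3%, counting error only). At 8-fold or more there were 147 increases and 28 decreases, and at 16-fold or more there were 52 and 8. The 3 libraries of each group did not overlap for 30.1% of the tested genes with Ago2 ADH higher and for 29.9% with Ago2 ADH lower.

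The mis-regulated genes made up much of the oocyte's RNA. The up-regulated genes took 16.9% to 17.2% of all normalized counts in the Ago2 fl/fl libraries and 28.7% to 29.1% in the Ago2 ADH libraries, while the down-regulated genes went from 38.0% to 38.1% in Ago2 fl/fl to 27.9% to 28.4% in Ago2 ADH. These shares describe genes picked by the same contrast and carry no test of their own. The calls varied with the level of the gene. With the genes divided into 10 classes by mean level, 36.6% of the most abundant class were down-regulated and 20.6% up-regulated, whereas in the second lowest class 5.87% were down-regulated and 17.5% up-regulated. Low genes need a larger change to pass the test.

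The largest increases were in genes that were nearly silent in control oocytes. Mt1, which encodes a metallothionein, a small cysteine-rich protein that binds zinc and copper, had 46.3, 43.1 and 61.8 normalized counts in the Ago2 fl/fl libraries and 7267, 8149.9 and 7420.0 in the Ago2 ADH libraries. The groups were far apart, and the log2 fold change was 7.25 ± 0.10 (edgeR adjusted p = 1.38e-19). Mt2, the neighbouring metallothionein gene usually induced with Mt1 by metals, had raw counts of 31, 16 and 13 in Ago2 fl/fl and 101, 22 and 11 in Ago2 ADH. The Mt2 groups overlapped, 1 Ago2 ADH library held most of the Mt2 counts, and Mt2 did not pass the test (edgeR adjusted p = 0.077). In the other libraries of the study Mt1 was at 197 and 233.5 CPM in the 2 Ago2 null libraries, 0.321 to 0.799 in Dicer WT and 129 to 156 in Dicer KO.

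Olfr1173, an olfactory receptor gene, and Gpr20, an orphan G protein-coupled receptor gene, went from almost no reads to a clear signal. Olfr1173 had raw counts of 0, 1 and 0 in Ago2 fl/fl and 352, 393 and 336 in Ago2 ADH. The ratio of its summed counts, scaled for depth, had a 95% counting interval of 215 to 47351, which shows how little the single control read fixes the size of the change. Gpr20 had raw counts of 2, 0 and 0 in Ago2 fl/fl and 642, 558 and 481 in Ago2 ADH, with an interval of 257 to 7696. In Ago2 null oocytes the 2 genes parted: Gpr20 had 0 counts in both libraries and Olfr1173 had 426 and 344. Slc7a3, which encodes a transporter of cationic amino acids, had 0 counts in all 3 Ago2 fl/fl libraries and 153, 142 and 61 in Ago2 ADH. Its summed count was at least 131-fold higher in Ago2 ADH, against a floor of 3 counts over the control group. In all, 12 tested genes had at most 3 reads over the control group, and all 12 were up-regulated, as a gene so low in the controls can pass the filter only through the other group.

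The other increases among the 10 largest in genes averaging 100 normalized counts or more started from low but measurable levels. Vav3, which encodes a guanine nucleotide exchange factor, had 205, 205 and 216 normalized counts in Ago2 fl/fl and 7340.4, 7722 and 7571 in Ago2 ADH, a 36.2-fold increase. Tstd3 rose 88.3-fold, Uchl4, a gene of the ubiquitin carboxy-terminal hydrolase family, 49.5-fold, and Deup1, which builds the structures that make many centrioles in ciliated cells, 41.9-fold. Nenf, which encodes the secreted factor neudesin, and 1700028P14Rik rose 53.1-fold and 56.6-fold. Uchl4 is closely related in sequence to Uchl3, and reads that align to both were not counted, so its level rests on the remaining reads. None of these 6 genes had overlapping groups, and each of the 3 Ago2 ADH libraries was at least 20 times above the highest control.

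**Figure D1:**
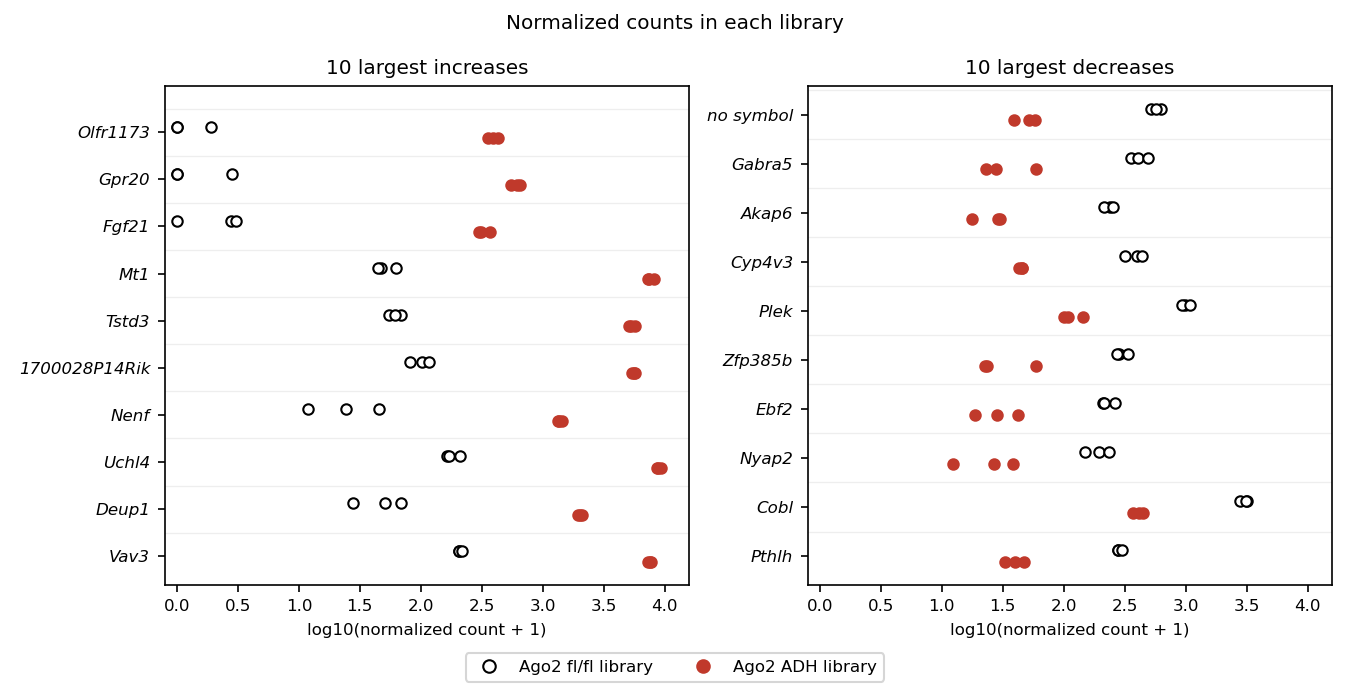
Normalized counts per library, as log10(count + 1) on the horizontal axis, for the 10 called genes with the largest increases and the 10 with the largest decreases among those averaging 100 normalized counts or more; open circles are Ago2 fl/fl and filled circles Ago2 ADH libraries, 3 each. Olfr1173 lies at 0 or 0.899 in the Ago2 fl/fl libraries and at 353 or more in the Ago2 ADH libraries, and the largest decrease, in a transcript with no matched symbol, is a log2 fold change of -3.53.

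Fgf21, a hormone gene best known from liver and induced by amino acid shortage and mitochondrial stress, had raw counts of 0, 2 and 2 in Ago2 fl/fl and 310, 376 and 236 in Ago2 ADH, with no overlap. Like the genes above it passed the filter only through the Ago2 ADH group, so its call is a description. Fgf21 and Slc7a3 led to a look at the other genes of the amino acid response, which the transcription factor ATF4 drives through a composite element read here as TGATGNAA on either strand. The list was drawn up after these values were seen, so its counts are a description. Of its 18 members 16 were tested, 9 were up-regulated, Fgf21 among them, and 2 down-regulated, and the median log2 fold change was 0.56, or 0.43 with offsets for GC content and length. Asns, asparagine synthetase, had 99.8, 98.0 and 117 normalized counts in Ago2 fl/fl and 1501, 1686 and 1613 in Ago2 ADH, a 15.2-fold increase. Psat1, an enzyme of serine synthesis, had a log2 fold change of 3.32 ± 0.27 and Sesn2, a stress-induced inhibitor of mTORC1 signalling, of 1.53 ± 0.23. Atf4 itself had 7014, 7926 and 8433 in Ago2 fl/fl and 11644, 12196 and 11178 in Ago2 ADH, a log2 fold change of 0.58 ± 0.06 without overlap. Ddit3, which encodes the stress factor CHOP, had a log2 fold change of 0.54 ± 0.10.

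Not all genes of this response moved together. Trib3, Ddit4, Phgdh, Slc7a5 and Chac1 did not pass the test, with log2 fold changes of 0.27 for Slc7a5, 0.49 for Trib3, 0.21 for Ddit4, -0.18 for Phgdh and 0.59 for Chac1. The Slc7a5 difference was called by DESeq2 (adjusted p = 0.00788). Atf3 was lower in Ago2 ADH (89.9, 111 and 116 in Ago2 fl/fl, 59.2, 29.5 and 68.7 in Ago2 ADH), a call lost without Ago2 fl/fl replicate 2 or 3, without Ago2 ADH replicate 1 or 2 and with all 5 groups in 1 fit, with adjusted p = 0.0104 to 0.0374. Slc7a11, the cystine transporter gene, had a log2 fold change of -0.18 ± 0.05, which became -0.05 (adjusted p = 0.5) with offsets for GC content and length and lost its call without Ago2 fl/fl replicate 1 or 2 or Ago2 ADH replicate 1 or 3 (adjusted p of at most 0.0362). The Atf5 increase (log2 fold change 1.34 ± 0.39) was lost without Ago2 ADH replicate 2, where the adjusted p was 0.1, and without either of 2 control libraries (replicate 2, adjusted p = 0.0302; replicate 3, adjusted p = 0.0339). It was also lost with GC and length offsets (adjusted p = 0.0134).

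The promoters of 5 of these genes are shown because each holds the element and because their genes differed in response: 2 were up-regulated, 2 down-regulated and 1 did not pass the test. Each line gives the 250 bases before the annotated transcription start, from RefSeq on build GRCm38.p6, read 5′ to 3′ on the gene's strand, with matches to TGATGNAA or its reverse complement in capitals. Of the list's 17 members with a promoter in the RefSeq table, 6 held a match, and of all 32851 promoters of this length 3.45% did. The members were chosen as genes of this response and some have 2 promoters, so these values are not a like comparison. Psat1, Sesn2, Atf4, Atf5, Ddit3 and Mthfd2 were up-regulated and held no match. Trib3, Ddit4 and Phgdh, which did not pass the test, held none either. A match is a description of the letters only and does not show that a factor was bound there.
Fgf21 (chr7:45615491-45615740, minus strand): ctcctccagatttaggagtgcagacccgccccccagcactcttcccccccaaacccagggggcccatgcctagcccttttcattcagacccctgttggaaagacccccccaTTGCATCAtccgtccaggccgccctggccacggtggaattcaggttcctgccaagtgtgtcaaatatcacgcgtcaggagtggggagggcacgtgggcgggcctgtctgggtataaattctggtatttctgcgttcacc
Asns (chr6:7693210-7693459, minus strand): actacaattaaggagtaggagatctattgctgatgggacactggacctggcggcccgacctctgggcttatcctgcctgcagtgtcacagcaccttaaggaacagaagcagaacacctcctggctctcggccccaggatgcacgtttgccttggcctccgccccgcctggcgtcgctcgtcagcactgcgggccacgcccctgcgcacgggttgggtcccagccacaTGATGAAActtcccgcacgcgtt
Atf3 (chr1:191183334-191183583, minus strand): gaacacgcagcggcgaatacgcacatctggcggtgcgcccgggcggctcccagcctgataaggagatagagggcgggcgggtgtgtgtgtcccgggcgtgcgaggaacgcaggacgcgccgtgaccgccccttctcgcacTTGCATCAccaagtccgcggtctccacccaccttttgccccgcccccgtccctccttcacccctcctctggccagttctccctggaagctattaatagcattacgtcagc
Slc7a11 (chr3:50443614-50443863, minus strand): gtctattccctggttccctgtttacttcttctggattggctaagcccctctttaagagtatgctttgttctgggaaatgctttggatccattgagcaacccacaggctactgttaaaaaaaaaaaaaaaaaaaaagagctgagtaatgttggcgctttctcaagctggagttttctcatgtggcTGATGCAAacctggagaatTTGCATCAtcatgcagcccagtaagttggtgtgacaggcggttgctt
Chac1 (chr2:119350992-119351241, plus strand): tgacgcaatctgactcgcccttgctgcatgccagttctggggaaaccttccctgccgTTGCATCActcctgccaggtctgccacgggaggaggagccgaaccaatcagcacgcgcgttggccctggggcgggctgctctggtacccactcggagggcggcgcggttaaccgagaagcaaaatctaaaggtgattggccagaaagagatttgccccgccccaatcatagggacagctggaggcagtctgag

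Among genes averaging 100 normalized counts or more, the largest decreases were smaller than the largest increases. All 8 genes down-regulated at least 16-fold lay under that level. Gabra5, a subunit of the GABA-A receptor, had 356, 403 and 490.2 normalized counts in Ago2 fl/fl and 22.1, 58.1 and 26.7 in Ago2 ADH, an 11.5-fold decrease. Cobl, an actin nucleator, was the most abundant of the 10, with 2809, 3198 and 3123 in Ago2 fl/fl and 449, 409.7 and 371 in Ago2 ADH, a 7.40-fold decrease. Plek (pleckstrin, a protein kinase C substrate) fell 8.55-fold, Akap6 (a scaffold for protein kinase A) 9.57-fold, and Cyp4v3 (a cytochrome P450 of fatty acid metabolism) 8.75-fold. Pthlh, which encodes parathyroid hormone-like peptide, and the transcription factor gene Ebf2 fell 7.23-fold and 7.76-fold. The zinc finger gene Zfp385b fell 8.54-fold and Nyap2, an adaptor for phosphoinositide 3-kinase, 7.55-fold. In each of the 10 genes the highest Ago2 ADH library lay below the lowest Ago2 fl/fl library.

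In absolute terms a few abundant transcripts accounted for the largest gains. Ccdc82, a coiled-coil protein gene, went from 0.630% to 0.680% of all normalized counts in the Ago2 fl/fl libraries to 2.19% to 2.47% in the Ago2 ADH libraries. Its normalized counts were 244767, 245579 and 258966 in Ago2 fl/fl and 908162, 986216 and 873608 in Ago2 ADH, a 3.69-fold increase. Sp110, which encodes a nuclear body protein of the interferon response, rose 6.31-fold, from 25361 ± 289 (SD, n = 3) to 160040.0 ± 6251, and Trappc9, a subunit of a complex that tethers vesicles, rose 4.30-fold. Foxj3, a forkhead factor gene, rose 2.41-fold. The largest losses in counts were in Ooep, part of the subcortical maternal complex, Dnmt1, the maintenance DNA methyltransferase, Mdm4, an inhibitor of p53, Rdx (radixin, which links actin to the membrane) and the X-linked deubiquitinase gene Usp9x. Their decreases were between 1.28-fold for Ooep and 1.56-fold for Rdx. Each of the 9 genes named here had no overlap between the groups.

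To describe functions, 63 gene lists (pathways, complexes and families) were examined, which together hold 3263 of the tested genes. A list is described by how many tested members were up- or down-regulated, beside 20.8% and 20.2% of all tested genes, and by its median log2 fold change, beside 0.01. The share of down-regulated genes rises with level, from 2.36% in the lowest of the 10 level classes to 36.6% in the highest. The lists were not matched for level. Of the 58 lists with at least 10 tested members, the median was above 0.1 in 16, below -0.1 in 8 and between these in 34.

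**Figure D2:**
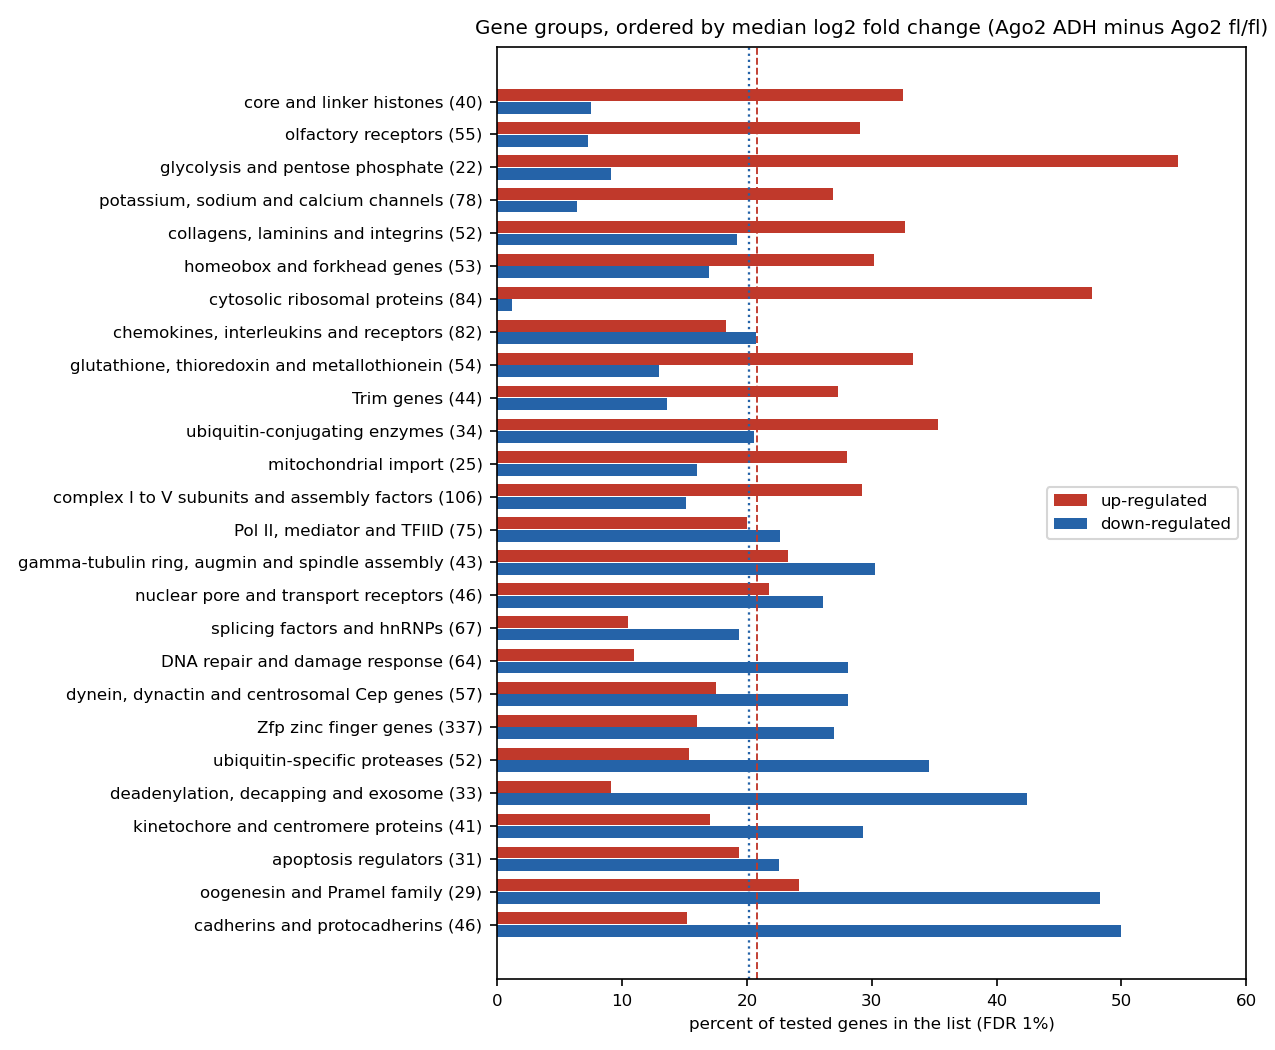
Percent of tested genes up-regulated (red) and down-regulated (blue) at an FDR of 1% in the 13 gene groups with the highest and the 13 with the lowest median log2 fold change, among the reported groups with at least 20 tested members, whose number is in parentheses; the dashed red line marks 20.8% and the dotted blue line 20.2% of all tested genes. Cytosolic ribosomal protein genes reach 47.6% up and 1.19% down, and deadenylation, decapping and exosome genes 9.09% up and 42.4% down.

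Genes of the cytosolic ribosome and of energy supply held more increases than decreases. Of 84 tested genes for proteins of the cytosolic ribosome, 40 were up-regulated and 1, Rpl38, was down-regulated, with a median log2 fold change of 0.15 that fell to 0.08 with offsets for GC content and length. Most of these changes were small, but Rps23 had 1379, 1343 and 1248 normalized counts in Ago2 fl/fl and 9174, 9604 and 9073 in Ago2 ADH, a 7.01-fold increase, and Rpl9 rose 3.38-fold. Mitochondrial ribosomal protein genes were balanced, with 15 up-regulated and 10 down-regulated of 78, as were translation initiation factors (8 and 10 of 47) and aminoacyl-tRNA synthetases (8 and 6 of 36).

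Among 22 tested genes of glycolysis and the pentose phosphate pathway, 12 were up-regulated and 2 were down-regulated, and the median was 0.29. Gapdh had 3209, 3729 and 3743 normalized counts in Ago2 fl/fl and 16777, 15635 and 17429.5 in Ago2 ADH, a 4.67-fold increase, and Pfkl, the liver isoform of phosphofructokinase, rose 1.65-fold. The 2 decreases were in Rpe and G6pdx of the pentose phosphate pathway. The G6pdx change was small (log2 fold change -0.20 ± 0.05) and lost its call without any of 3 libraries (Ago2 fl/fl replicate 2, adjusted p = 0.0178; Ago2 fl/fl replicate 3, 0.0102; Ago2 ADH replicate 1, 0.0109).

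In the citrate cycle and pyruvate oxidation list 6 of 30 genes (20%) were up-regulated, near the 20.8% of all tested genes, and 0 down-regulated. The leading gene was Bckdhb, a subunit of the complex that breaks down branched-chain keto acids, with 583, 563 and 624 normalized counts in Ago2 fl/fl and 10883, 12303 and 11181 in Ago2 ADH (19.4-fold). The respiratory chain list (complexes I to V with their assembly factors) had 31 genes up-regulated and 16 down-regulated of 106. The median of this list was 0.11 and fell to 0.05 with offsets for GC content and length. Its leading genes went opposite ways: Sdhaf4, an assembly factor of complex II, rose 10.3-fold from 5275 ± 123 to 54446 ± 1416 (SD, n = 3), and Sdhaf1, another factor of the same complex, had a log2 fold change of -1.26 ± 0.20. Glutathione, thioredoxin and metallothionein genes had 18 increases and 7 decreases among 54, and mitochondrial import genes 7 and 4 among 25. The median of the import genes fell from 0.12 to 0.06 with these offsets. Genes of cholesterol synthesis were split evenly, 6 up-regulated and 6 down-regulated of 23.

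Gapdh, Rps23 and Rpl9, named above for their increases, each have many processed pseudogenes, intronless copies of an mRNA inserted elsewhere in the genome. They are also counted in the classes below. Endo-siRNAs were not measured in these libraries, and their part was not tested. After these increases were seen, the 10236 processed pseudogenes of the GENCODE annotation were aligned to the coding transcripts. Of these pseudogenes, 6308 were assigned to the gene they matched best at 85% identity or more over at least 50% of their length. Of the tested genes 96.8% could be matched to this table. Among the 225 tested genes with 5 or more assigned pseudogenes, 92 (40.9%) were up-regulated and 25 (11.1%) were down-regulated. Among the 11682 genes with none, 20.1% were up-regulated and 20.5% down-regulated. The share of up-regulated genes over the classes went from 22.6% with 1 pseudogene and 25.0% with 2 to 4 to 40.3% with 5 to 19 and 43.6% with 20 or more, and the share of down-regulated genes was 7.69% in the last class of 39 genes. The difference did not extend to large increases: 8% of the 225 genes and 9.58% of the genes with none were up-regulated at least 2-fold.

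Genes with many pseudogenes are abundant, so the classes were also compared within 3 levels of equal size. In the most abundant of these 42.5% of the 186 genes with 5 or more pseudogenes were up-regulated and 10.2% down-regulated, beside 21.0% and 32.5% of the 3422 genes with none. At the middle level the shares were 37.9% and 17.2% of 29 genes, beside 22.6% and 22.8% of 3978. At the lowest level only 10 genes had 5 or more pseudogenes, with 2 up-regulated and 1 down-regulated, beside 728 and 369 (8.62%) of the 4282 genes with none. Without the ribosomal protein genes, 38.1% of the remaining 160 genes with 5 or more pseudogenes were up-regulated and 24 genes down-regulated. The median log2 fold change of the 225 genes was 0.14, so the usual change was small. Gene-level classes carry no test here because the genes are not replicates. The classes were not matched for transcript length. In the eighth of genes with the shortest transcripts 24.5% were up-regulated and 11.8% down-regulated, and the part of length in the pseudogene classes was not tested.

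Large increases stood beside small ones in this class. Ppia, cyclophilin A, to which 45 pseudogenes were assigned, had 7717, 7117 and 6815 normalized counts in Ago2 fl/fl and 45777, 44523 and 46629 in Ago2 ADH, a 6.32-fold increase. Dppa5a, a germ cell and stem cell RNA-binding protein gene with 7, rose 5.91-fold, and Actg1, cytoplasmic actin, with 14, rose 3.12-fold. Gapdh had the most pseudogenes, 188. Having many was not enough for a change: Rpl7a, with 138, and Rpl29, with 109, did not pass the test (log2 fold changes 0.02 and 0.14), and Hnrnpa3, with 30, was down-regulated (-0.21). Reads that align to several places were not counted on genes, so for genes with near-identical copies the level rests on the reads that only the gene matches. Alignments of such reads numbered 0.755 to 0.810 per read counted on genes in the Ago2 fl/fl libraries and 2.13 to 2.25 in the Ago2 ADH libraries, and their part in the levels of these genes was not tested. Genes overlapping a transcript of the opposite strand by at least 50 exonic bases showed no such difference. Of 3735 such genes 746 were up-regulated and 723 (19.4%) down-regulated, beside 21.1% and 20.6% of 9793 others. The reads were counted without strand, so reads of an antisense partner are included.

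**Figure D3:**
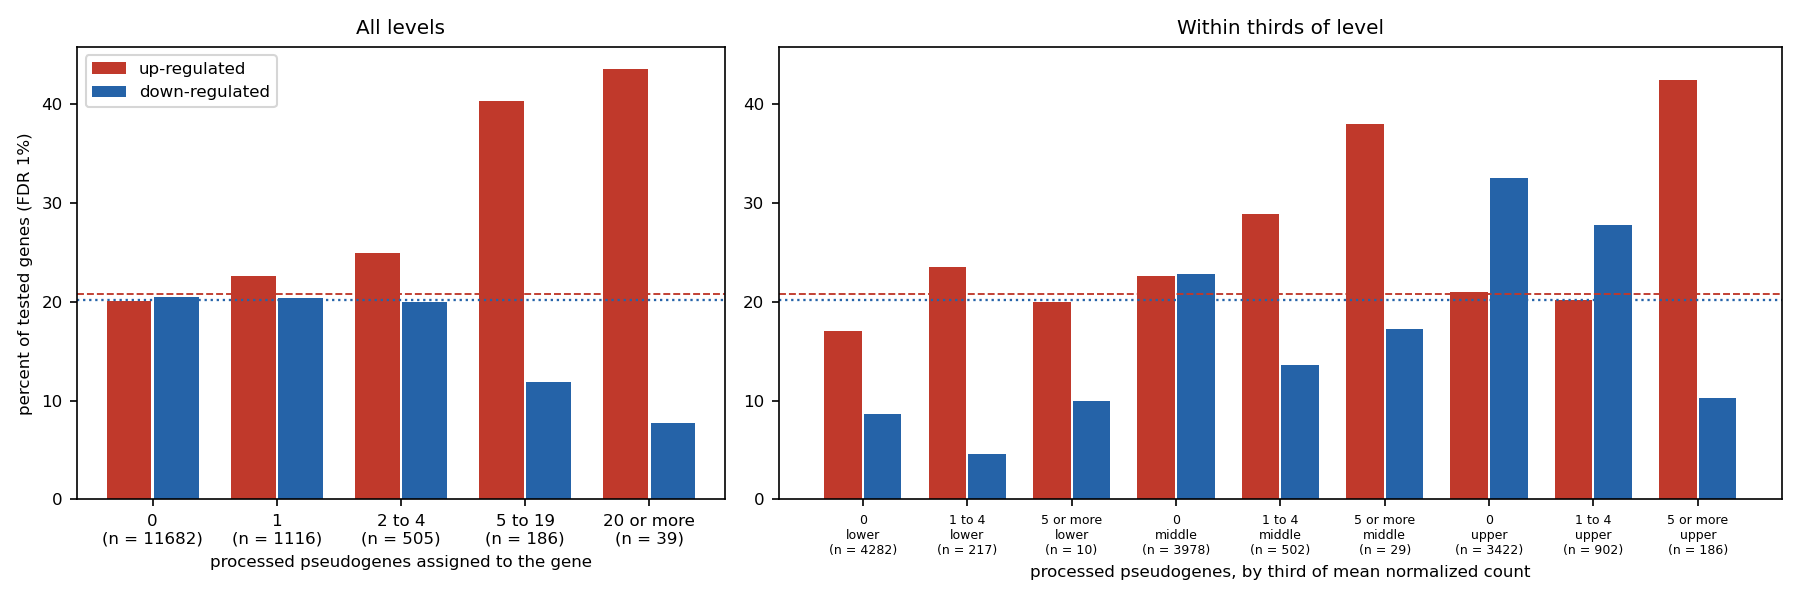
Percent of tested genes up-regulated (red) and down-regulated (blue) at an FDR of 1%, by the number of processed pseudogenes assigned to the gene, over all genes (left) and within 3 equal levels of mean normalized count (right); the dashed and dotted lines mark the shares over all tested genes. Up-regulated genes make up 20.1% of genes with no assigned pseudogene and 43.6% of genes with 20 or more.

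A short list of 5 genes known in the field as sources of oocyte endo-siRNAs was examined too: Rangap1, Ppp4r1, Hdac1, Kif4 and Pdzd11. It was written from general knowledge and not from an annotation, and with earlier results of these data known. All 5 were up-regulated, and the count is not independent evidence. Kif4 and Pdzd11 lie side by side on the X chromosome and were counted without strand, so the 5 genes are not 5 separate loci. Rangap1, which activates GTP hydrolysis by Ran and so shapes the Ran gradient around the spindle, had 402, 437 and 458 normalized counts in Ago2 fl/fl and 4623, 4806 and 4443 in Ago2 ADH, a 10.7-fold increase. Ppp4r1, a regulatory subunit of protein phosphatase 4, rose 2.34-fold, the histone deacetylase gene Hdac1 2.03-fold, the chromokinesin gene Kif4 1.80-fold and Pdzd11 1.42-fold.

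Genes of the microtubule cytoskeleton, from which the meiotic spindle is built, moved both ways. Of 18 tested tubulin genes 8 were up-regulated and 2 down-regulated, with a median of 0.26 (0.14 with GC and length offsets). Tuba1c and Tuba1b rose 2.99-fold and 2.44-fold, whereas Tuba3b had 264, 402 and 331 normalized counts in Ago2 fl/fl and 131, 95.5 and 97.9 in Ago2 ADH, a 3.06-fold decrease. Tubulin genes are close in sequence, and reads that align to several of them were not counted, so their levels rest on the remaining reads. Tbcd, a cofactor that folds tubulin dimers and takes them apart, had 918, 935 and 908 in Ago2 fl/fl and 6493, 6786 and 6301 in Ago2 ADH, a 7.09-fold increase, and it was the only 1 of the 6 cofactors to be called.

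Among 34 kinesin motor genes 9 were up-regulated and 7 down-regulated. Kif13b and Kif15 rose 2.32-fold and 2.20-fold, and Kif18a, which limits chromosome movement at the metaphase plate, fell 1.61-fold, from 4577 ± 248 to 2836 ± 201. In the list of gamma-tubulin ring, augmin and spindle assembly genes, 10 were up-regulated and 13 down-regulated of 43; Ran rose 2.83-fold and Haus1, an augmin subunit, fell 2.48-fold. Dynein, dynactin and centrosomal Cep genes had 10 increases and 16 decreases among 57, with the dynein light chain genes Dynlt3 (5.55-fold) and Dynll1 (2.49-fold) rising.

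Kinetochore and DNA repair genes were down-regulated more often than up-regulated, while other lists of chromosome and cell cycle genes were closer to even. Of these 2 lists, 29.3% and 28.1% were down-regulated and 17.1% and 10.9% up-regulated. Their median levels lie among the seventh to ninth of the 10 level classes, counted from the lowest. In those classes 26.3% to 28.5% of genes were down-regulated and 21.5% to 22.2% up-regulated. Kinetochore and centromere genes had 7 increases and 12 decreases among 41, with a median of -0.15. Cenpw had 2596, 2377 and 2447 normalized counts in Ago2 fl/fl and 1323, 1566 and 1333 in Ago2 ADH and fell 1.76-fold, whereas Cenpk rose 2.05-fold. DNA replication factors had 5 increases and 8 decreases among 49. DNA repair and damage response genes had 7 increases and 18 decreases among 64. Rad51ap2 fell 2.75-fold, and Xrcc4, a ligation factor of non-homologous end joining, rose 3.07-fold. Spindle checkpoint and anaphase-promoting complex genes were even, 5 up-regulated and 5 down-regulated of 26, and cohesin, condensin and synaptonemal complex genes nearly so, 8 and 9 of 34. The 4 largest increases of that list were all in genes of meiotic prophase: Hormad1 (2.33), Stag3 (1.38), Sycp3 (1.35) and Sycp1 (1.06, log2 fold changes). Cyclins and cyclin-dependent kinases had 12 increases and 10 decreases among 50, and Mos, the kinase behind metaphase II arrest, fell 1.72-fold, from 11028 ± 611 to 6407 ± 144 (SD, n = 3).

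Genes that shorten and degrade mRNA were lower more often than higher. Of 33 genes of deadenylation, decapping and the exosome, 3 were up-regulated and 14 down-regulated, with a median of -0.15. The decreases included 8 of the 11 subunit genes of CCR4-NOT, the main deadenylase complex, and none of the 11 was up-regulated. That subgroup was picked after its values were seen. Its median level of 11874 normalized counts lies in the highest level class, where 36.6% of genes were down-regulated. Cnot1, the scaffold subunit, had 23793, 24216 and 24776 normalized counts in Ago2 fl/fl and 17851, 15709 and 17894 in Ago2 ADH, a 1.41-fold decrease, and Cnot8 fell 1.40-fold. Of the 8 calls, that of Cnot10 was lost without any library but Ago2 ADH replicate 2 and with GC and length offsets (adjusted p of at most 0.0378). That of Cnot3 was lost without Ago2 fl/fl replicate 2 or 3, without Ago2 ADH replicate 1 or 2 and with all 5 groups in 1 fit (adjusted p of at most 0.0221). The call of Cnot6 was lost without Ago2 fl/fl replicate 1 (adjusted p = 0.0113), and that of Cnot7 with GC and length offsets (adjusted p = 0.0467). The 3 increases were in exosome subunit genes, led by Exosc9 (2.28-fold).

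Among 15 tested genes of the small RNA machinery, 3 (20%) were up-regulated, namely Dicer1, Mov10 and Tnrc6a. Another 2 (13.3%) were down-regulated, namely Ago2 and Ago3. Neither share was above that of all tested genes, 20.8% and 20.2%. Dicer1 had 32960.1, 34269 and 34624 normalized counts in Ago2 fl/fl and 53291, 53341 and 55352 in Ago2 ADH, a 1.59-fold increase. Mov10, an RNA helicase bound to Argonaute, rose 1.96-fold. The call of Tnrc6a, a partner of Argonaute in repression (log2 fold change 0.34 ± 0.10), was lost without Ago2 fl/fl replicate 1 or 2, without Ago2 ADH replicate 1 or 3, with upper-quartile scaling and with all 5 groups in 1 fit, with adjusted p = 0.0124 to 0.0502. Ago3 had 6029, 6339.8 and 5893 in Ago2 fl/fl and 5201, 5268 and 5033 in Ago2 ADH, a difference that lost its call without Ago2 fl/fl replicate 2 (adjusted p = 0.0125) and with GC and length offsets (adjusted p = 0.078). Ago1 (61.1 ± 18.8 against 61.3 ± 9.82) and Ago4 (49.1 ± 8.60 against 72.7 ± 12.2) were low and did not pass the test. In the piRNA pathway, which silences transposons in the germ line, 5 of 18 genes were up-regulated and 3 down-regulated. Piwil2 rose 4.83-fold and the germ cell helicase gene Ddx4 rose 2.20-fold. Genes that store and translate maternal mRNA were nearly even, 8 up-regulated and 7 down-regulated of 25: Ddx6, Pabpc1 and Zfp36l2 rose 2.43-fold, 2.54-fold and 2.59-fold, and Pabpn1l fell 2.09-fold. Interferon response and double-stranded RNA sensing genes had 9 increases and 8 decreases among 43, with Oas3 and Gbp7 higher (4.70-fold and 4.38-fold) and Tlr3 and Oas1b lower (2.79-fold and 2.22-fold).

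Genes that define the oocyte moved both ways. In the zona pellucida and egg surface list 3 of 12 genes were up-regulated and 1 down-regulated; Zp3 and Zp2, structural proteins of the egg coat, rose 1.26-fold and 1.22-fold. Gdf9, the growth factor through which the oocyte instructs follicle cells, had 329329, 298254 and 285209 normalized counts in Ago2 fl/fl and 274082, 335357 and 286512 in Ago2 ADH, with overlapping groups. Kit, the receptor for Kit ligand of the follicle, had 14321, 13803 and 14138 in Ago2 fl/fl and 8375, 8513 and 9216 in Ago2 ADH and fell 1.62-fold, and Gpr3, which keeps meiotic arrest, fell 1.40-fold. Of the 17 genes of growth factors and contact with the follicle, 1 was up-regulated, the actin-bundling gene Lcp1 (6.81-fold), and 6 were down-regulated. The subcortical maternal complex had 3 increases and 4 decreases among 8 genes, the other oocyte Nlrp genes 2 and 5 among 8, and the oogenesin and Pramel family 7 and 14 among 29, with a median of -0.30. Within that family Oog3 fell 1.68-fold while Oog4 had 36225, 34479 and 35452 in Ago2 fl/fl and 73785, 75499 and 76009 in Ago2 ADH, a 2.12-fold increase. Of 16 oocyte transcription factor genes 6 were up-regulated, with Stat3 (6.57-fold) and Sohlh2 (2.55-fold) in front, and 2 were down-regulated.

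Among nuclear genes, 13 of 40 tested histone genes were up-regulated and 3 down-regulated, with a median of 0.36 that fell to 0.15 with GC and length offsets. H1f4, a linker histone gene of dividing cells, had 28.1, 57.5 and 54.7 normalized counts in Ago2 fl/fl and 469.7, 490.4 and 496 in Ago2 ADH (10.4-fold), and H1f8, the oocyte linker histone, was slightly lower (log2 fold change -0.18 ± 0.05), a call lost without Ago2 fl/fl replicate 2 (adjusted p = 0.0281) or Ago2 ADH replicate 1 (adjusted p = 0.0157). Zfp zinc finger genes, many of which encode repressors of transcription, held 54 increases and 91 decreases among 337, with a median of -0.12. The increases reached further: Zfp930 had 1488, 1607 and 1519 in Ago2 fl/fl and 25601, 28866 and 30115 in Ago2 ADH (18.3-fold), and Zfp473 rose 15.8-fold. Histone modifiers and DNA methylation genes had 20 and 14 among 85, chromatin remodelling subunits 14 and 11 among 51, and homeobox and forkhead genes 16 and 9 among 53, up-regulated first. Splicing factors and hnRNPs had 7 and 13 among 67, and RNA polymerase II, mediator and TFIID genes 15 and 17 among 75.

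Arms of the ubiquitin system leaned in opposite directions by the number of genes called. Ubiquitin-conjugating enzyme genes had 12 increases and 7 decreases among 34, led by Ube2v1 (3.24-fold) and Ube2l3 (2.92-fold). Ubiquitin-specific protease genes, which remove ubiquitin, had 8 increases and 18 decreases among 52, with a median of -0.13. The decreases were the smaller changes: 6 genes of this list were up-regulated at least 2-fold and 0 down-regulated as much. Usp29 had 1662, 2055 and 1877 normalized counts in Ago2 fl/fl and 1086, 1039 and 1288 in Ago2 ADH, a 1.64-fold decrease. Proteasome genes had 8 increases and 1 decrease among 48, with the catalytic subunit gene Psmb5 up 2.09-fold. F-box genes had 9 and 18 among 68, with Fbxo15 down 3.54-fold, Trim genes 12 and 6 among 44, and heat shock proteins and chaperones 11 and 17 among 70. Whether these lists differ from each other was not tested.

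Genes of the cell surface included some large changes from low levels. Of 1102 olfactory receptor genes in the table only 55 passed the filter, and 16 of these were up-regulated and 4 down-regulated. Since a low gene that passes the filter through 1 group had to differ, these counts describe only the genes that passed. Beside Olfr1173, Olfr1197 had a log2 fold change of 4.07 ± 0.31 and Olfr613 of 2.30 ± 0.21. Potassium, sodium and calcium channel genes had 21 increases (26.9%) and 5 decreases (6.41%) among 78 tested of 160. Their median level was 117 normalized counts, beside 105 in the third lowest of the 10 level classes. In that class 21.3% of genes were up-regulated and 14.3% down-regulated. Trpc4, a calcium-permeable channel gene, had 880.4, 930.1 and 917 normalized counts in Ago2 fl/fl and 2988, 3330.5 and 3339 in Ago2 ADH (3.54-fold), and Trpm6, a magnesium channel gene, fell 3.50-fold. Collagen, laminin and integrin genes had 17 increases and 10 decreases among 52, with the integrin gene Itgb2 up 7.73-fold and the laminin gene Lama1 down 2.45-fold. Solute carrier genes had 69 (23.9%) and 47 (16.3%) among 289 tested of 385, up-regulated first, beside 20.8% and 20.2% of all tested genes.

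Cadherin and protocadherin genes had 7 increases and 23 decreases among 46, but 14 of the decreases were in the protocadherin alpha cluster, whose transcripts share their last exons. In 12 of these 14 genes the counts matched those of another member within 2% in every library, so they amount to little more than 1 measurement. Outside that cluster, Fat4, an atypical cadherin gene, had 98.0, 101 and 110.4 normalized counts in Ago2 fl/fl and 328, 469.7 and 362 in Ago2 ADH, a 3.76-fold increase.

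**Figure D4:**
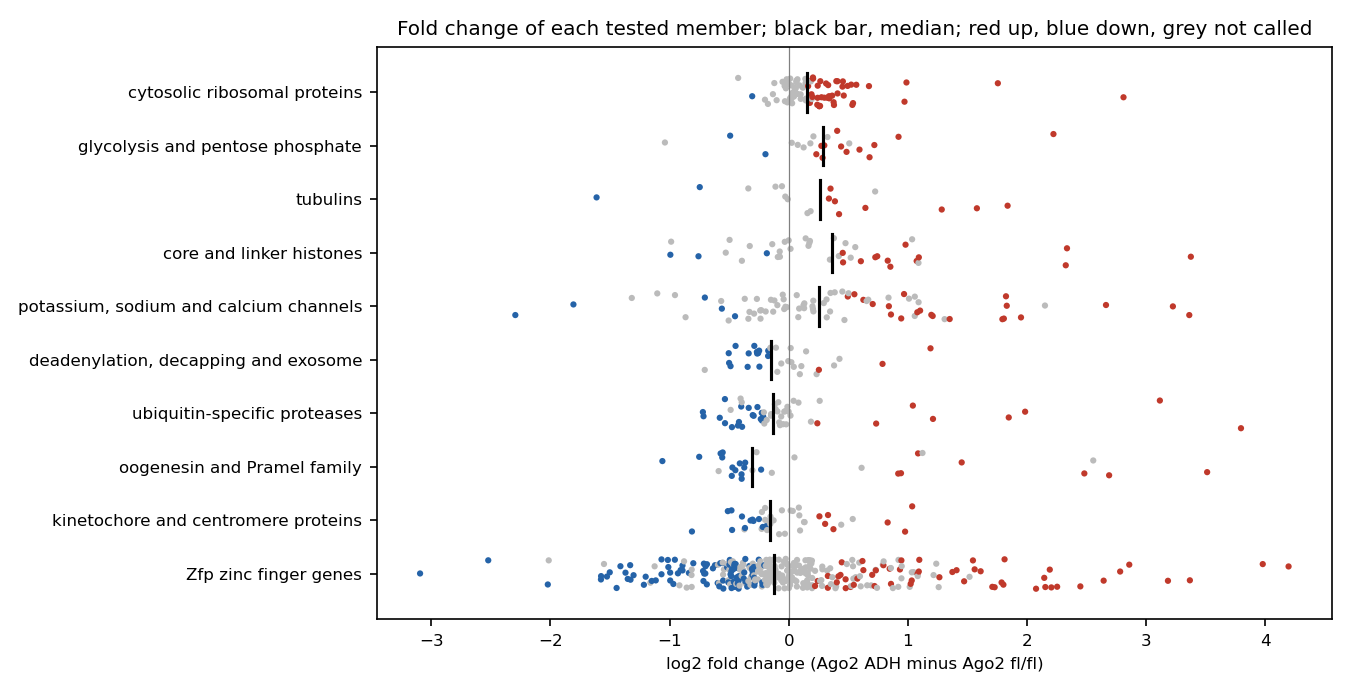
Log2 fold change (Ago2 ADH minus Ago2 fl/fl, horizontal axis) of every tested member of 10 gene groups; red points are up-regulated, blue points down-regulated and grey points not called at an FDR of 1%, and the black bar is the median of the group. Ribosomal protein genes lie mostly just above 0 around a median of 0.15 with Rps23 far to the right, and Zfp genes spread widely around a median of -0.12.

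Genes near Ago2 on chromosome 15 were examined because any sequence that travels with the ADH or the floxed allele goes with genotype. Of 34 genes within 2 Mb of Ago2 (chr15:73101625-73184947, GRCm38.p6, RefSeq) 16 were tested, 4 were up-regulated and 6, with Ago2, were down-regulated, beside 41.0% of all tested genes called. Gpr20 and Trappc9, described above among the largest changes, lie 0.504 Mb and less than 0.1 Mb from Ago2. Trappc9 had 33739, 30977 and 31272 normalized counts in Ago2 fl/fl and 134828, 153465 and 124006 in Ago2 ADH. Dennd3, an activator of Rab12, had 998, 1091 and 993 in Ago2 fl/fl and 645, 636 and 539 in Ago2 ADH and fell 1.69-fold, and Ly6e, a membrane-anchored Ly6 family gene 1.77 Mb away, fell 3.51-fold. The calls of 4 other genes were lost when single libraries were left out. That of Ptk2 was lost without Ago2 fl/fl replicate 2, without Ago2 ADH replicate 1 or 3 and with GC and length offsets (adjusted p of at most 0.0144). That of Col22a1 was lost without Ago2 fl/fl replicate 3 or Ago2 ADH replicate 1 (at most 0.0279) and that of Slc45a4 without replicate 3 of either group (at most 0.0148), both also with all 5 groups in 1 fit, and that of Slurp2 without Ago2 fl/fl replicate 1 or Ago2 ADH replicate 2 (at most 0.0422). Trappc9 was as high in the Ago2 null libraries, which have no ADH allele (3383 and 3405 CPM, beside 803 to 868 in Ago2 fl/fl and 3108 to 3843 in Ago2 ADH), and stood at 2330 to 2434 CPM in Dicer KO beside 579 to 748 in Dicer WT. Gpr20 had 0 counts in both Ago2 null libraries, beside raw counts of 642, 558 and 481 in Ago2 ADH. For all neighbours described here, sequence linked to the allele and the ADH mutation cannot be told apart in these 6 libraries.

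**Figure D5:**
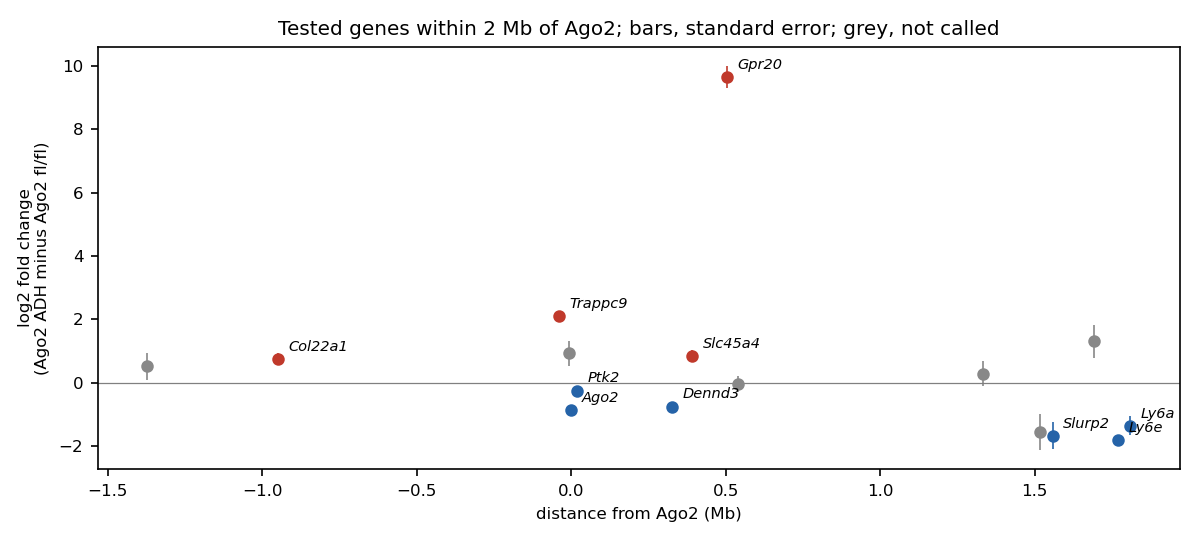
Log2 fold change (Ago2 ADH minus Ago2 fl/fl, vertical axis, with standard error) of the 16 tested genes within 2 Mb of Ago2 against their distance from Ago2 in Mb; red genes are up-regulated, blue genes down-regulated and grey genes not called. Gpr20 stands apart 0.504 Mb from Ago2, at a fitted height that its 2 control reads do not fix, and Ly6e, Ly6a and Slurp2 are lower at the far right.

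Long transcripts were down-regulated more often than short ones. In the eighth of genes with the shortest transcripts 24.5% were up-regulated and 11.8% down-regulated, and in the eighth with the longest 19.3% and 28.7%. The medians of these 2 classes were 0.10 and -0.08, and with offsets for GC content and length they were 0.00 and -0.02. The offsets are fitted on length in these same libraries and remove a length trend whatever its source. The second pair of medians is therefore no test of the trend. On the X chromosome 25.7% of 499 tested genes were up-regulated and 20.4% down-regulated, beside 20.6% and 20.1% of 13300 autosomal genes.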

How the data were processed

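RNA from pools of 20 oocytes was amplified with the Ovation RNA-Seq System V2. The authors mapped paired-end reads to mm10 with TopHat2 and counted them on RefSeq transcripts with HTSeq; the submitters' processing notes name TopHat2 2.0.7, HTSeq 0.6.1 and DESeq 1.10.0. The deposited values are raw read counts per transcript, with summary lines for reads not assigned. Those lines were left out, and for each gene the transcript with the highest mean count was kept, since transcripts of a gene share reads; of 26495 transcripts 301 had no symbol. Reads that fit several transcripts add to each of them, and strand is not used.

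The 6 libraries of both groups were fitted with edgeR 4.0.16 (quasi-likelihood test, TMM normalization, filterByExpr, Benjamini-Hochberg adjustment over 13979 genes, FDR 1%). Named genes were the 10 largest increases and decreases and the 5 largest gains and losses in counts among called genes without overlap, up to 2 called genes per list and direction (all but the gains and losses averaging 100 normalized counts or more), Ago genes and their called neighbours; genes named besides these were chosen after their values were seen, and 1 named gene and 1 list are not reported here. Members and lists were chosen with earlier results of these data known. The ATF4 list, the CCR4-NOT subgroup and the pseudogene and antisense classes were added after values were seen; pseudogene parents were found with blastn. Same-numbered libraries did not deviate together (r = 0.0147, 0.0358 and 0.00177). Alternatives were DESeq2 1.42.0, other scalings, filters, thresholds and transcripts, all 5 groups in 1 fit, a replicate block, each library left out, and, chosen after seeing the data, lowess offsets for GC content and length. The scripts were tested on simulated counts.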

Additional observations from a re-analysis of the deposited data

Results flagged for a closer look

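Beside the counts per transcript, the deposited tables tally alignments that were not used. Alignments of reads that fit several places of the genome numbered 0.776 ± 0.0298 (SD, n = 3) per read counted on genes in Ago2 fl/fl and 2.18 ± 0.0620 (n = 3) in Ago2 ADH. They ran from 0.755 to 0.810 in the controls and from 2.13 to 2.25 in Ago2 ADH, a ratio of 2.80 without overlap (exact permutation test, two-sided p = 0.1, the smallest that 3 against 3 libraries can give). The tally counts alignments, not reads, and does not say where in the genome they lie, so repeats, transposons and pseudogenes cannot be told apart in it. Reads in no annotated transcript numbered 0.171 ± 0.00296 per counted read in Ago2 fl/fl and 0.246 ± 0.0236 in Ago2 ADH, a ratio of 1.44 (exact permutation test, two-sided p = 0.1). Both tallies stand out because they lie outside the counts on genes and above the control level. The paper's methods give different mapping settings for reads of different lengths and do not say which libraries had which. The part of read length and mapping settings in the tallies was not tested, and lane cannot be told apart from genotype.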

How the results depend on the processing

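The numbers of up- and down-regulated genes stayed within 1.5 times the reported 2907 and 2821 in every alternative run. Leaving out 1 library at a time gave 2432 to 2741 up-regulated and 2312 to 2704 down-regulated genes, and 68.6% to 70.3% up-regulated among those changed at least 2-fold. That share was 68.1% when all 5 groups entered 1 fit, just under its counting interval. Other settings kept from 89.1% to 100% of the calls with their sign, and leaving out a library kept 81.8% to 89.5%. With the replicate number as a block, 2947 genes were up- and 2869 down-regulated and the share was 69.7%; the labels do not say what the numbers share, and the same-numbered libraries did not deviate together. Of the list medians, 188 of 1110 values under alternatives moved by more than the spread between the Ago2 ADH libraries. None of the 6481 values of named genes changed direction, 181 lost the call and 27 gained it. TMM, RLE and upper-quartile scaling moved the median of all genes by at most 0.02 on the log2 scale. Depth was at least 31366583 counted reads per library. The pooling of oocytes, the single lane per group, and the Cre transgene, Ago2 copy number and linked sequence that go with genotype are limits that no refit can address.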

Other observations

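Families that share the stem of their symbol were also examined, 243 of them with at least 8 tested genes. Among 23 collagen genes 11 were up-regulated and 1 down-regulated. The calls of Col17a1, Col6a6, Col20a1, Col4a1, Col22a1 and Col28a1 were lost in 3 to 11 alternatives each, and those of Col13a1, Col4a3, Col6a4, Col6a5 and Col9a3 held in every alternative run. Myotubularin genes, phosphatases that act on phosphoinositides, had 6 of 11 down-regulated and none up-regulated, among them Mtmr6 (log2 fold change -0.92 ± 0.14) and Mtmr9 (-0.70 ± 0.12). Of 15 tested claudin genes, which form tight junctions, 6 were down-regulated and 2 up-regulated, and of 10 ataxin genes 6 and 1. All these families were picked after their values were seen, beside 20.8% of tested genes up-regulated and 20.2% down-regulated.

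Some defensin, Rhox homeobox and vomeronasal receptor genes were among the clear increases. Of the 69 genes of the defensin family, antimicrobial peptides of the gut and skin, 9 were tested, 4 were up-regulated and 1 was down-regulated. Defa43 had 33.6, 57.5 and 34.4 normalized counts in Ago2 fl/fl and 1401, 1694 and 1441 in Ago2 ADH, and Defa42 had 42.7, 78.2 and 44.6 in Ago2 fl/fl and 1737, 2126 and 1793 in Ago2 ADH. The groups did not overlap in either gene. Defensin genes are much alike, and reads that align to several of them were not counted, so these levels rest on the remaining reads. Rhox10, a homeobox gene of the X-linked reproductive cluster, had 143, 109.6 and 89.1 in Ago2 fl/fl and 2475, 2629 and 2759 in Ago2 ADH, a 22.8-fold increase. The vomeronasal receptor gene Vmn1r65 had 549, 598 and 886 in Ago2 fl/fl and 11171, 11649.7 and 12207 in Ago2 ADH. The genes whose counts are shown here had reads in every Ago2 fl/fl library. Most genes of these families did not pass the filter, and a low gene can pass through 1 group alone. No count over these families is therefore given as support.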
